A study of Ovis aries with 3 samples.

Results

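GPNMB and AQP5 are 2 of the 26247 genes counted in 3 single-cell RNA libraries of sheep rumen epithelium, and were taken by symbol. Each symbol is carried by 1 Ensembl identifier, ENSOARG00000012748 for GPNMB and ENSOARG00000018171 for AQP5. They were chosen because earlier work on these counts had found both higher in keratinocytes of the milk-only library, so their levels by diet are given as a description. The epithelium came from Hu sheep, a Chinese breed, at 42 days of age. One library came from lambs on milk only, another from lambs on milk and alfalfa hay, and another from lambs on milk and concentrate starter, and all groups received milk. How many animals went into a library is not given in the sources used here. With 1 library per diet there was no replicate and no test, and diet, the animals sampled and library preparation cannot be told apart. Values in parentheses after a level, share or ratio are 95% intervals for counting error only.

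GPNMB encodes a glycoprotein that spans the membrane of melanosomes, lysosomes and the cell surface, and its outer part can be shed by the protease ADAM10. It is best known in melanocytes, in macrophages that handle much lipid or debris, and in osteoclasts. AQP5 encodes a water channel placed in the apical membrane of salivary, lacrimal and airway gland cells, and it is also found in cornea and skin. The rumen lining is a stratified squamous epithelium, in which keratinocytes leave a basal layer and move through spinous and granular stages to a horny surface.

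After filtering, 3850 milk-only, 7031 hay and 4891 concentrate cells remained, with medians of 11021, 5887 and 8050 unique molecular identifiers (UMIs, each standing for 1 captured RNA molecule) per cell. Of these, 3401, 6991 and 4674 were counted as keratinocytes, most of them by default. In these the basal keratin KRT15 stood at 7989, 6303 and 7879 counts per 1000000 UMIs (CPM). The pairs of libraries shared 15 to 28 cell barcodes. Most clusters were largely specific to 1 library, and the milk-only library gave 1171 of 1194, 1021 of 1026 and 802 of 833 cells of its 3 main clusters. Levels below are UMIs of a gene summed over the cells of a class and divided by all their UMIs, in CPM.

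Keratinocytes of the milk-only library held GPNMB at 46.8 CPM (44.8 to 48.8), from 2192 UMIs. The hay library had 2.0 CPM (1.61 to 2.46), from 90 UMIs, and the concentrate library had 2.84 CPM (2.36 to 3.38), from 126 UMIs. GPNMB was thus high in the milk-only library and low in both others, 23.4-fold (19.0 to 29.2) above hay and 16.5-fold (13.8 to 19.9) above concentrate. The concentrate and hay libraries differed by 1.42-fold (1.07 to 1.88). These folds depended on the cells kept. They were 15.2 and 10.8 without the cluster led by GPNMB itself, and the fold over hay was 15.4 when cells needed a mitochondrial share under 10%.

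AQP5 did not share this pattern of 1 high and 2 low libraries. It stood at 21.7 CPM (20.3 to 23.0) with milk only, from 1015 UMIs, at 0.311 CPM (0.170 to 0.522) with hay, from 14 UMIs, and at 3.78 CPM (3.23 to 4.40) with concentrate, from 168 UMIs. The 3 intervals were apart from each other, in the order milk only, concentrate, hay. Milk only exceeded hay 69.7-fold (41.3 to 128) and concentrate 5.73-fold (4.86 to 6.78), and concentrate exceeded hay 12.2-fold (7.05 to 22.7). The 12.2-fold gap of AQP5 between the concentrate and hay libraries stood against 1.42-fold for GPNMB, and the intervals of these ratios did not overlap.

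Among genes with at least 10 CPM in the higher library, 9.96% were at least 2-fold higher with milk only than with hay, 6.37% were at least 2-fold higher than with concentrate, and 5.32% were so against both, 0.715% by at least 10-fold. Genes at least 2-fold lower with milk only made up 1.74% against hay and 2.63% against concentrate. Both genes are among the 5.32% by the way they were chosen, and GPNMB alone is among the 0.715%. GPNMB ranked 29th of 4587 genes by its ratio to hay and 22nd of 4723 by its ratio to concentrate. AQP5 ranked 15th and 80th. Between concentrate and hay, 3.09% of 4437 genes were at least 2-fold higher with concentrate, a count that leaves out both genes because neither reached 10 CPM in either library.

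**Figure D1:**
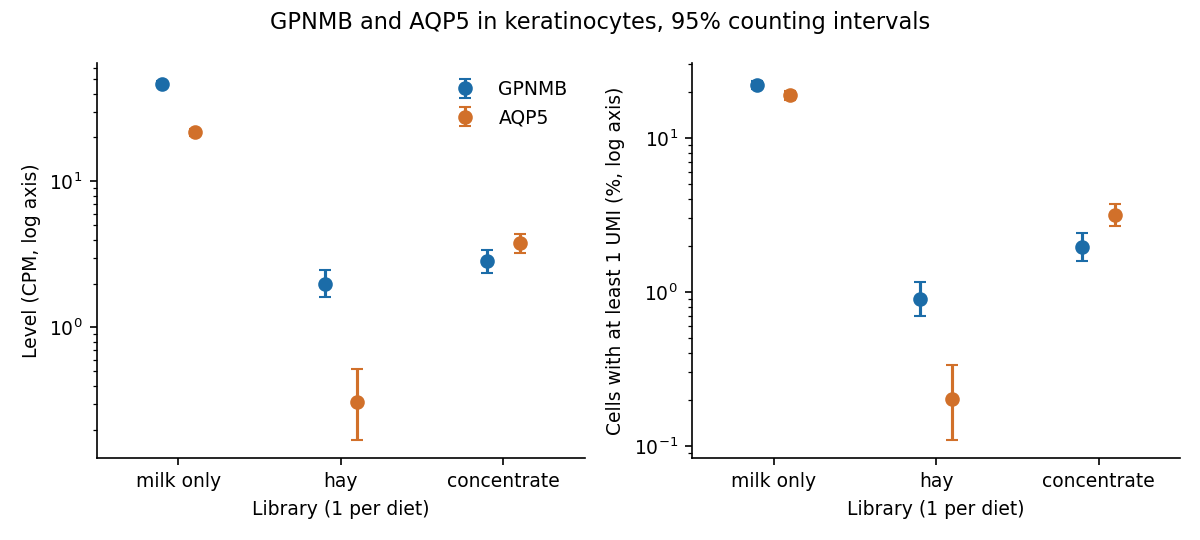
Level of GPNMB and AQP5 in CPM (left) and share of cells with at least 1 UMI in percent (right) in milk-only, hay and concentrate keratinocytes, both on log axes, with 95% Poisson (left) and Clopper-Pearson (right) intervals as bars. GPNMB falls from 46.8 to 2.0 and 2.84 CPM, and AQP5 from 21.7 to 0.311 and 3.78 CPM, so AQP5 alone has a wide gap between the hay and concentrate libraries.

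GPNMB was found in 749 of 3401 milk-only keratinocytes, 22.0% (20.6 to 23.5), in 63 of 6991 hay keratinocytes, 0.901% (0.693 to 1.15), and in 92 of 4674 concentrate keratinocytes, 1.97% (1.59 to 2.41). AQP5 was found in 642 (18.9%, 17.6 to 20.2), 14 (0.200%, 0.110 to 0.336) and 148 (3.17%, 2.68 to 3.71) of the same cells. Median depth in these cells was 11631, 5895 and 8283 UMIs. Thinning every cell to 2000 UMIs gave 7.01%, 0.401% and 0.695% for GPNMB, and 3.99%, 0.0572% and 0.565% for AQP5. It left out 218 milk-only and 68 concentrate keratinocytes and no hay keratinocyte. The order of the libraries was that of the CPM, with AQP5 in hay resting on 4 thinned cells.

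T or NK-like cells, which should lack both genes, served as a comparison for UMIs that come from other cells, whether through free RNA or doublets. Of 334 milk-only T or NK-like cells, 3.89% (2.09 to 6.56) had a GPNMB UMI and 1.50% (0.488 to 3.46) an AQP5 UMI, at a median depth of 4943.5 UMIs. At 2000 UMIs these shares were 1.24% and 0.311%, below the 7.01% and 3.99% of keratinocytes at the same depth. In the concentrate library 0 of 44 such cells had either gene, which allows a share of up to 6.82%, so the low keratinocyte shares of that library could not be set apart from UMIs of other cells in this way. The hay library had only 8 such cells.

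The genes differed in how their UMIs were spread over milk-only cells. GPNMB was uneven, with 350 cells at 1 UMI, 267 at 2 to 4, 96 at 5 to 9 and 36 at 10 or more, and up to 33 UMIs in a cell. Those 36 cells, 24 of them in the cluster led by GPNMB, held 24.1% of its UMIs. AQP5 had 432 cells at 1 UMI, 195 at 2 to 4, 15 at 5 to 9 and none above 8. The variance of UMIs per cell was 6.42 times the mean for GPNMB and 2.0 times for AQP5, and a few very high cells were thus a feature of GPNMB. In the hay library all 14 AQP5-positive keratinocytes had a single UMI.

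Both genes were higher with milk only in each keratinocyte class. In cycling-like cells, which carry mitotic genes such as ASPM and TOP2A, GPNMB was at 22.1 CPM with milk only, 2.08 CPM with hay and 1.70 CPM with concentrate, and AQP5 at 14.9, 0.244 and 3.30 CPM. The hay value of AQP5 rested on 2 UMIs, so that its 61.1-fold ratio has an interval of 16.5 to 510. In keratinocytes outside the cycling-like and differentiated keratinocyte-like classes GPNMB was at 61.0, 2.01 and 3.30 CPM, and AQP5 at 21.4, 0.303 and 3.80 CPM. Different clusters held most of this class in the 3 libraries, led by GPNMB or RCAN1 with milk only, by FBP1, FBP2 or HSPA6 with hay, and by THEM5 or CCDC80 with concentrate. The class also took in a cluster led by FAM111B and RRM2, with MCM5 of the cycling marker list among its leading genes. That cluster had 4 milk-only, 500 hay and 315 concentrate cells.

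Differentiated keratinocyte-like cells numbered 802 with milk only, in a cluster led by CNFN, PI3 and A2ML1, and 64 and 91 in the other libraries, mostly in another cluster led by KRT10 and SPINK5. GPNMB was at 19.5 CPM (16.7 to 22.7) there with milk only and had no UMI with hay or concentrate. Set against 3 counts in each of those libraries it was 3.81-fold above hay and 10.7-fold above concentrate. The exact lower limits of these ratios were 3.06 and 8.61. AQP5 was at 28.7 CPM (25.2 to 32.4) with milk only and at 6.08 CPM (2.92 to 11.2) with concentrate, a ratio of 4.71 (2.52 to 9.95). Hay had 1 AQP5 UMI in this class, which leaves its ratio of 16.8 with an interval of 2.98 to 665. Milk-only T or NK-like cells had GPNMB at 17.7 CPM (12.6 to 24.3), which overlaps the milk-only cycling-like (18.9 to 25.7) and differentiated keratinocyte-like cells. The GPNMB levels of these classes could thus not be set apart from UMIs of other cells. AQP5 in T or NK-like cells, at 4.67 CPM (2.24 to 8.58), lay below its milk-only intervals in both classes.

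Within the milk-only library the genes followed different keratinocyte states. GPNMB was at 78.3 CPM (74.0 to 82.8) in 1171 cells of the cluster it leads together with FMO2, a flavin monooxygenase, and MT2A, a metallothionein. It was at 42.2 CPM (38.9 to 45.8) in 1021 cells led by the stress-response genes RCAN1, ZFP36 and ATF3 and the collagenase MMP13. Cycling-like and differentiated keratinocyte-like cells had 22.1 (18.9 to 25.7) and 19.5 CPM (16.7 to 22.7), which were not separable (ratio of differentiated to cycling 0.883, 0.710 to 1.10). GPNMB was among the genes used to form the clusters, so its height in the cluster it leads could partly come from the choice of those cells. When both genes were left out of the clustering, a cluster of 1165 cells, 1139 of them milk-only, was again led by GPNMB, FMO2 and MT2A. The GPNMB level was not summed over that cluster.

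AQP5, which was not used to form the clusters, was as high in the differentiated keratinocyte-like cluster as in the GPNMB-led one, at 28.7 (25.2 to 32.4) and 29.2 CPM (26.6 to 32.0). Their ratio was 1.02 (0.873 to 1.19), where GPNMB had 4.01 (3.42 to 4.73). AQP5 was at 14.9 CPM (12.3 to 17.9) in cycling-like cells and at 12.8 CPM (10.97 to 14.8) in the RCAN1-led cluster, and these did not differ beyond counting error (1.17, 0.916 to 1.48). The RCAN1-led cluster was thus second for GPNMB and last for AQP5. The GPNMB-led cluster held 57.1% of all GPNMB UMIs and 46.0% of all AQP5 UMIs of milk-only keratinocytes with 34.1% of their total UMIs. The differentiated keratinocyte-like cluster held 7.80% of the GPNMB UMIs and 24.7% of the AQP5 UMIs with 18.7% of the total. Its cells were shallow, with a median of 3620 UMIs, and the neutrophil-list genes S100A9 and S100A12 were among its 10 leading genes.

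**Figure D2:**
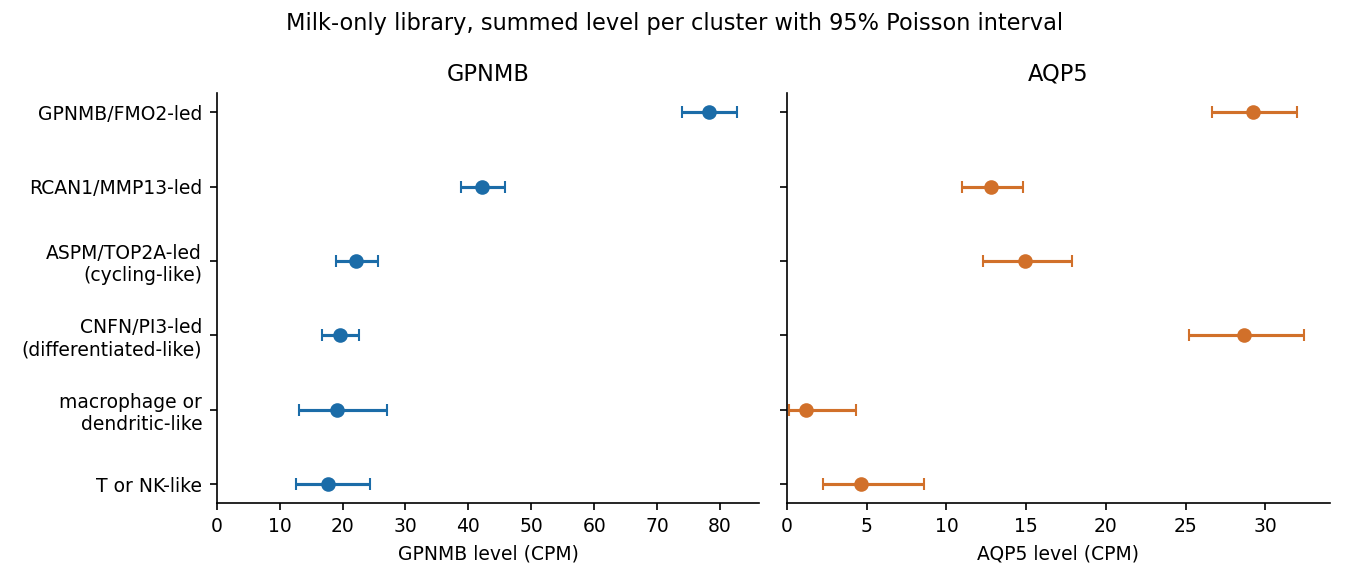
Summed level of GPNMB (left) and AQP5 (right) in CPM, from a zero baseline, in each cluster of the milk-only library, with 95% Poisson intervals as bars. GPNMB is highest in the cluster it leads (78.3 CPM) and low in the differentiated keratinocyte-like cluster (19.5 CPM), whereas AQP5 is at 29.2 and 28.7 CPM in these clusters and at 12.8 CPM in the RCAN1-led cluster.

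The same contrast appeared when milk-only keratinocytes were ordered by their share of UMIs from 15 spinous, granular and cornified marker genes, without regard to clusters. Over 4 equal bins of cells, from the lowest share to the highest, AQP5 was at 11.2, 16.8, 26.5 and 33.8 CPM, and the highest bin exceeded the lowest 3.03-fold (2.48 to 3.72). GPNMB was at 49.5, 60.7, 52.0 and 22.1 CPM, and the highest bin had 0.445 (0.382 to 0.518) of the lowest. Without the differentiated keratinocyte-like cluster the AQP5 ratio was 3.65 (2.87 to 4.70), while GPNMB was level at 0.941 (0.821 to 1.08). The fall of GPNMB therefore lay in that 1 cluster, and the gradient of AQP5 did not.

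SPINK5, a protease inhibitor of the upper layers, gave 52.1% of the marker UMIs in the highest of those bins. With SPINK5 left out the ratios without the differentiated keratinocyte-like cluster were 2.98 (2.36 to 3.77) for AQP5 and 1.01 (0.884 to 1.15) for GPNMB. Over all cells with SPINK5 left out AQP5 was at 11.97, 18.35, 29.2 and 28.6 CPM. Its ratio was 2.39 (1.95 to 2.95), and its rise ended before the highest bin. Ordered by 7 basal markers, of which KRT15 is the most abundant, GPNMB was at 19.7, 47.6, 55.5 and 58.9 CPM from the lowest to the highest bin, and AQP5 at 31.8, 18.9, 17.2 and 20.9 CPM. Without the differentiated keratinocyte-like cluster the highest basal bin exceeded the lowest 1.32-fold (1.16 to 1.51) for GPNMB and 0.869-fold (0.714 to 1.06) for AQP5. The highest differentiated bin of all cells was shallow, with a median of 5143 UMIs against 12210 in the lowest.

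**Figure D3:**
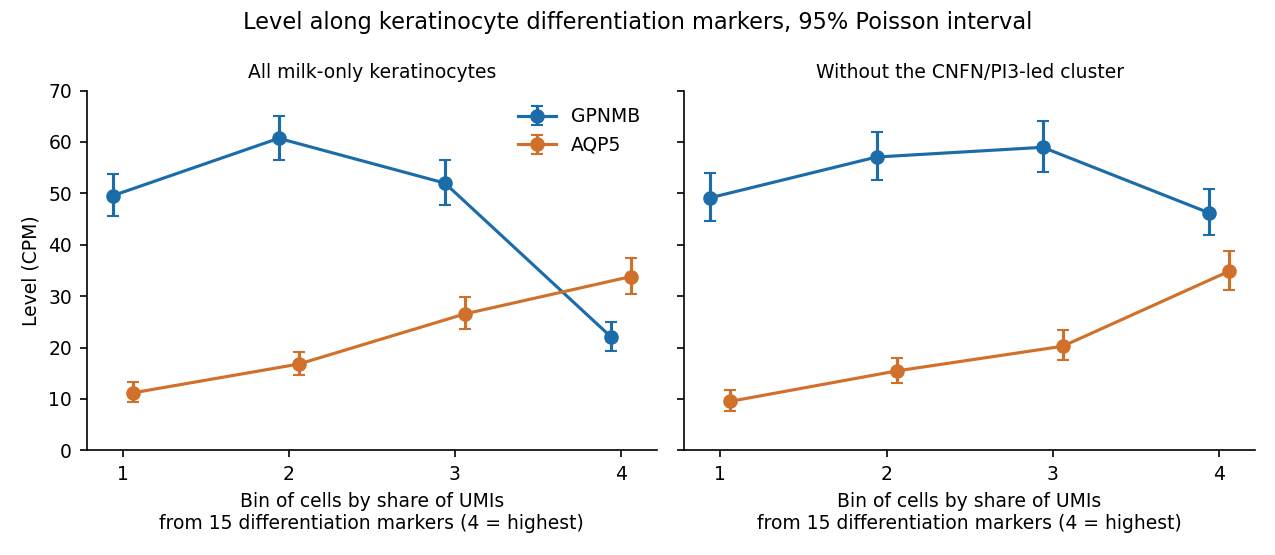
Level of GPNMB and AQP5 in CPM in milk-only keratinocytes cut into 4 equal bins by their share of UMIs from 15 differentiation markers, for all keratinocytes and without the differentiated keratinocyte-like cluster, with 95% Poisson intervals as bars. AQP5 climbs in both panels (11.2 to 33.8 CPM in all cells), and GPNMB drops in the highest bin of all cells (22.1 CPM) but is level without that cluster.

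In concentrate keratinocytes, which the milk-only pattern had not used, AQP5 again rose along the differentiation markers and GPNMB along the basal ones. The falls of GPNMB along the differentiation markers and of AQP5 along the basal markers, seen over all milk-only cells, were not seen there beyond counting error. With 1571 cells that had no differentiation-marker UMI set first and the other cells in 3 equal steps of the marker share, AQP5 was at 1.78, 2.98, 4.21 and 6.60 CPM. The highest step exceeded the cells without marker UMIs 3.71-fold (2.22 to 6.46). SPINK5 was the most abundant of these markers in concentrate keratinocytes, at 197 CPM. The ordering with SPINK5 left out was not made for the concentrate or hay library, so the share of SPINK5 in this rise was not tested. GPNMB was at 3.30, 2.43, 3.06 and 2.6 CPM, with a ratio of 0.789 (0.459 to 1.34). Along the basal markers GPNMB went from 1.47 to 3.10 and 4.53 CPM in the 3 steps of concentrate cells (highest over lowest 3.08, 1.90 to 5.11), and AQP5 was at 3.69, 3.37 and 4.45 CPM (1.21, 0.826 to 1.76). The hay library, with 14 AQP5 UMIs, had 8 of them in its highest differentiation step. Along the basal markers hay GPNMB did not climb, at 1.34, 2.90 and 1.69 CPM. Hay AQP5 fell over the same steps, with 9, 3 and 1 UMIs (highest over lowest 0.128, 0.00293 to 0.926).

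The largest clusters of the concentrate library, led by CCDC80 and by THEM5, ran in opposite directions for the genes. GPNMB was at 7.60 CPM (5.62 to 10.0) in the cluster led by CCDC80 and FST, with the immediate-early gene FOSB and the heat shock gene HSPA6, and at 2.12 CPM (1.55 to 2.84) in the cluster led by THEM5 and FABP4, a ratio of 3.58 (2.34 to 5.49). AQP5 was at 1.86 CPM in the first and 4.71 CPM in the second, so the THEM5-led cells exceeded the CCDC80-led cells 2.53-fold (1.39 to 5.07). Other concentrate clusters did not follow this opposition. Cycling-like cells had GPNMB at 1.70 and AQP5 at 3.30 CPM, and FAM111B-led cells 3.01 and 3.29 CPM. The KRT10-led differentiated keratinocyte-like cluster had AQP5 at 6.54 CPM, 1.39 times the THEM5-led cluster (0.646 to 2.66), and no GPNMB UMI in 77 cells. In hay, GPNMB was at 5.36 CPM (3.80 to 7.36) in the cluster led by HSPA6, FOSB and HSPA1A, 5.68-fold (2.96 to 11.6) above the FBP1-led and 6.47-fold (2.97 to 16.1) above the FBP2-led cluster. In both libraries the keratinocyte cluster with the highest GPNMB thus had HSPA6 and FOSB among its leading genes. AQP5 had 8 of its 14 hay UMIs in the FBP1-led cluster and none in the HSPA6-led one.

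GPNMB and AQP5 were found together in 206 of 3401 milk-only keratinocytes, 6.06% (5.28 to 6.91). The product of their separate shares gives 4.16%, and the observed share was 1.46 times that (1.27 to 1.66). Of GPNMB-positive cells 27.5% had AQP5, and of AQP5-positive cells 32.1% had GPNMB. Deeper cells detect more of both: over 4 equal bins of depth, from the shallowest to the deepest, GPNMB was found in 6.82%, 18.9%, 28.8% and 33.5%, and AQP5 in 6.58%, 9.06%, 21.9% and 38.0%. When the expected share was taken within 4 depth bins of each cluster, the ratio was 1.10 (0.957 to 1.25). The number of cells with both genes was thus not separable from that expected from cluster and depth. Levels in CPM, not matched for cluster or depth, did differ. Over all cells GPNMB was at 52.2 CPM in AQP5-positive and 44.7 CPM in AQP5-negative cells (1.17, 1.07 to 1.28). AQP5 was at 26.0 CPM in GPNMB-positive and 19.9 CPM in GPNMB-negative cells (1.31, 1.15 to 1.49). AQP5-positive cells had a median of 18265 UMIs against 10535, and GPNMB-positive cells 15463 against 10619.5. Over the 4 depth bins GPNMB itself ranged from 35.2 to 58.2 CPM and AQP5 from 12.7 to 24.2 CPM.

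By cluster, and within depth bins, observed over expected was 1.06 (0.884 to 1.26) in the GPNMB-led cluster, 1.16 (0.838 to 1.57) in the RCAN1-led cluster, 0.875 (0.524 to 1.36) in cycling-like cells and 1.45 (0.978 to 2.07) in differentiated keratinocyte-like cells. All 4 intervals held 1. By level, without matching for depth, the clusters were unlike each other. In each of them, positive cells of either gene were deeper than negative ones by median UMIs. In the RCAN1-led cluster GPNMB was 1.62-fold (1.34 to 1.96) higher in AQP5-positive cells, and AQP5 1.78-fold (1.30 to 2.43) higher in GPNMB-positive cells. In differentiated keratinocyte-like cells GPNMB was 2.81-fold (2.04 to 3.897) higher in AQP5-positive cells, which had a median of 21360 UMIs against 2946.5 in AQP5-negative ones, and AQP5 was 1.36-fold (0.990 to 1.84) higher in GPNMB-positive cells. In the GPNMB-led cluster these ratios were 0.926 (0.820 to 1.04) and 1.19 (0.986 to 1.44), and in cycling-like cells 0.717 (0.482 to 1.04) and 0.876 (0.561 to 1.34), so that neither stood apart from 1. Over all 3401 cells of this 1 library the log-scaled values had a Pearson correlation of 0.06 and a Spearman correlation of 0.11, with depth shared by both genes, which is too weak in such sparse counts to be a finding. Of the 36 cells with at least 10 GPNMB UMIs, 11 (30.6%) had AQP5. In the hay library 0 cells held both (0.126 expected), and in the concentrate library 2 (2.91 expected).

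**Figure D4:**
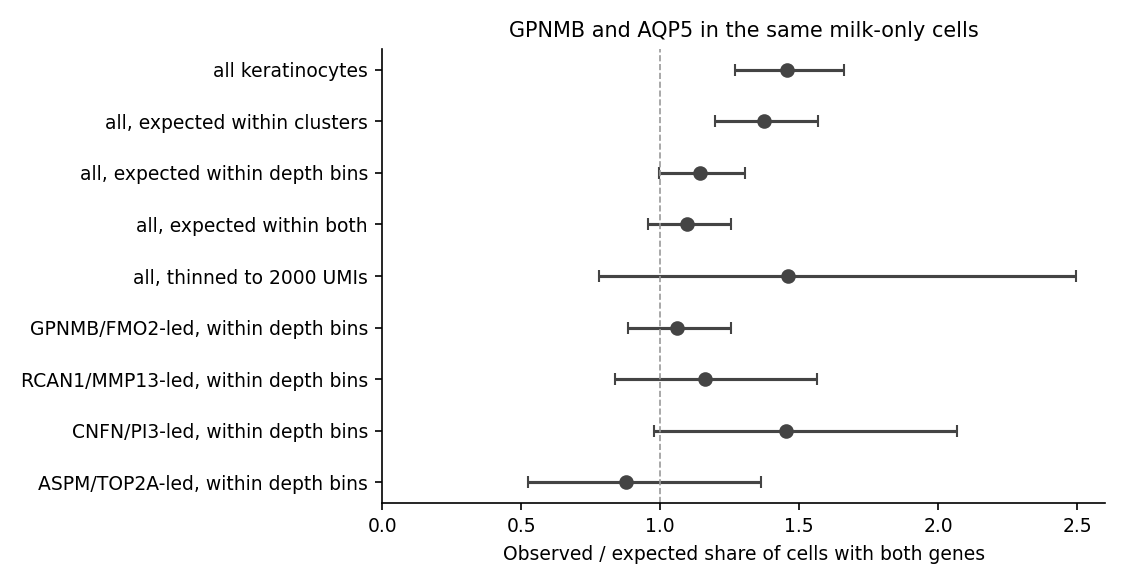
Observed over expected share of milk-only keratinocytes with both GPNMB and AQP5, with 95% intervals as bars and a dashed line at 1, for different ways to form the expected share and for each cluster. The ratio is 1.46 from the overall shares and 1.10 once cluster and depth are held, where the interval takes in 1.

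Macrophages are a known site of GPNMB, but here macrophage or dendritic-like cells, a cluster with the complement gene C1QA and IL1B at its head, held less of it than keratinocytes did. In 112 such milk-only cells GPNMB was at 19.1 CPM (13.1 to 27.0), from 32 UMIs in 11 cells, 0.409 (0.279 to 0.580) of the keratinocyte level. T or NK-like cells had 17.7 CPM (12.6 to 24.3), from 38 UMIs, 16 of them in a single cell. The 11 GPNMB-positive macrophage or dendritic-like cells had a median of 108 KRT15 UMIs and 20054 UMIs in all, against 1 and 13278 in the 101 negative ones. The 13 GPNMB-positive T or NK-like cells had a median of 143 KRT15 UMIs, against 1 in the negative ones. The GPNMB-positive immune cells were thus deep cells most of which also carried the keratin, and doublets had not been removed.

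Without the 21 macrophage or dendritic-like cells that had more than 10 KRT15 UMIs, the other 91 held 8 GPNMB UMIs in 2 cells, at 7.01 CPM (3.03 to 13.8), or 0.150 of the keratinocyte level. The hay and concentrate libraries had 0 GPNMB UMIs in 31 and 50 such cells, which allows up to 22.7 and 15.6 CPM, so macrophage levels could not be compared between diets. AQP5 had 2 UMIs in the 112 milk-only cells (1.2 CPM, 0.145 to 4.32). Keratinocytes exceeded this 18.1-fold (5.00 to 150).

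Macrophage and melanocyte genes were also counted in the keratinocytes themselves. The 13 macrophage or dendritic markers with a symbol summed to 7.72, 1.22 and 1.31 CPM in milk-only, hay and concentrate keratinocytes, with 5, 7 and 5 of them at 0 (CSF1R, FCER1G, MARCO, CD163 and LYZ with milk only). Within milk only they summed to 6.01 CPM in GPNMB-positive and 8.43 CPM in GPNMB-negative keratinocytes, so they were not higher where GPNMB was found. The 7 melanocyte markers summed to 4.12, 4.15 and 2.90 CPM, with the pigment genes TYR, TYRP1 and DCT at 0 with milk only, and to 3.30 and 4.46 CPM in GPNMB-positive and negative cells. Of 8 secretory or simple epithelium markers, 5 had a symbol in the files. These summed to 37.4, 9.06 and 20.4 CPM by library, and to 30.5 and 40.0 CPM in AQP5-positive and negative cells. Most of the sum was KRT7, at 19.5 and 31.6 CPM in AQP5-positive and negative cells, and KRT8 was lower as well (0.459 and 0.918 CPM). SLC12A2 (9.17 and 6.25 CPM) and CFTR (1.38 and 1.21 CPM) were higher in AQP5-positive cells, and LTF had no UMI.

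Among the measured binding partners of GPNMB, SDC4 alone was at least 2-fold higher with milk only. Of all measured genes, 9.96% were so against hay and 6.37% against concentrate. Of 8 genes of its shedding and binding partners 6 were measured, meaning 10 CPM or more in the higher library. 1 of them was at least 2-fold higher with milk only in each comparison and 0 were lower, and their median log2 ratios were 0.43 to hay and 0.06 to concentrate, against 0.17 and -0.04 for all measured genes. SDC4, a heparan sulphate proteoglycan to which GPNMB binds on T cells, was at 32.3, 7.81 and 9.0 CPM in the milk-only, hay and concentrate libraries (4.13-fold and 3.59-fold). ADAM10, the sheddase, was at 31.8, 21.8 and 30.9 CPM, the integrin subunit ITGB1 at 128, 88.3 and 119 CPM, ITGAV at 76.5, 74.6 and 106 CPM, and CD44, the hyaluronan receptor, at 244, 231 and 286 CPM.

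None of the 4 MiT/TFE transcription factors, which drive lysosome genes and GPNMB in other cells, reached 10 CPM. MITF was at 3.63, 3.75 and 2.32 CPM, TFEB at 0.960, 0.355 and 0.653 CPM, TFE3 at 1.09, 0.666 and 0.923 CPM, and TFEC had no UMI. Of 30 lysosome genes 8 were measured. Of these 1 was at least 2-fold higher than with hay, the hexosaminidase subunit HEXA at 13.2, 6.15 and 6.77 CPM, 0 than with concentrate, and 0 were lower. Of all measured genes, 9.96% were at least 2-fold higher than with hay and 6.37% than with concentrate. The proton pump genes ATP6AP1 and ATP6V1A were at 83.8, 56.2 and 64.3 CPM and at 7.40, 8.503 and 11.2 CPM, and the lysosomal membrane gene LAMP1 at 16.9, 12.01 and 12.6 CPM. The median log2 ratios of the list were 0.19 and 0.14, against 0.17 and -0.04 for all measured genes.

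AQP5 was the only aquaporin to reach 10 CPM in any library, among 11 of 13 with a symbol of their own. AQP3, the water and glycerol channel of epidermis, was not higher with milk only, at 2.11, 3.42 and 2.81 CPM from 99, 154 and 125 UMIs. AQP4 had 21, 0 and 20 UMIs, and AQP6 13, 0 and 3, so that these, too, were lowest in the hay library. AQP1, AQP2, AQP8, AQP11 and MIP had at most 3 UMIs in any library, and AQP9 and AQP10 none. Reads shared between these related genes could have been split in ways the counts do not show.

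Of 11 genes of cell volume and osmotic response 3 were measured. The kinase gene SGK1 was at least 2-fold higher with milk only, at 50.8, 19.98 and 21.1 CPM. So were 9.96% of all measured genes against hay and 6.37% against concentrate. NFAT5, the main factor of the hypertonic response, was level at 51.9, 53.2 and 56.5 CPM, and the inositol carrier SLC5A3 was at 10.7, 15.9 and 11.3 CPM. Their median log2 ratios were -0.04 and -0.07. The list also holds SLC12A2, the sodium, potassium and chloride carrier that acts beside AQP5 in gland secretion, which is singled out here after its values were seen. It had 331 UMIs with milk only against 3 with hay and 4 with concentrate, or 7.06, 0.0666 and 0.0900 CPM, below the 10 CPM needed to be counted. Over milk-only cells its correlation with AQP5 was 0.03.

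Most measured stress genes were higher with milk only, while the few measured wound genes were divided. Of 11 wound keratinocyte genes 4 were measured, of which 2 were at least 2-fold higher and 1 lower than with hay (9.96% and 1.74% of all measured genes), and 1 higher and 1 lower than with concentrate (6.37% and 2.63% of all). The growth factor AREG was at 123, 27.2 and 28.7 CPM, HBEGF at 59.0 CPM with milk only and 25.3 CPM with hay, KRT17 at 1778, 1043 and 1114 CPM, and the protease MMP9 was lower with milk only, at 3.37, 13.5 and 12.5 CPM. Their median log2 ratios were 0.996 and 0.83. Of 12 stress and immediate early genes 10 were measured and 8 were at least 2-fold higher in each comparison, 0 lower, with medians of 2.08 and 2.34. ZFP36, which speeds mRNA decay, was 13.02-fold and 9.84-fold higher, and GADD45A, a DNA damage response gene, 7.22-fold and 8.56-fold. NFKBIA, the inhibitor of NF-kappaB, was 8.83-fold and 9.18-fold higher, and the stress factor ATF3 8.63-fold and 6.63-fold. The part of this stress expression in the levels of GPNMB and AQP5 was not tested.

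Over the 14 sums of a library and cell class with at least 50 cells, the 5 genes whose log2(CPM + 10) was most like that of GPNMB were FMO2 (Pearson 0.90), GADD45A (0.85), the pyruvate dehydrogenase kinase PDK4 (0.82), the inositol kinase ITPKC (0.79) and CDKN2AIP (0.78). FMO2 was at 65.3, 0.333 and 1.42 CPM in keratinocytes of the 3 libraries. For AQP5 they were the mitochondrial outer membrane protein gene TSPO (0.87), the NADPH oxidase organiser NOXO1 (0.87), MRPL21 (0.87), the glutathione transferase GSTA1 (0.84) and SCAND1 (0.84). The lists had no gene in common, and GPNMB and AQP5 had 0.67 with each other. The sums share libraries, and 1 diet sets most of the range.

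Cell by cell within milk only, the most correlated genes differed as well. These correlations, over 3401 cells of 1 library and 1185 candidate genes with at least 50 CPM, describe cells of unequal depth and were all low. The 10 highest for GPNMB were SELENBP1 (0.21), TST, IL1R2, DHRS7, IGFBP5, CD44, HSD17B2, CA12, KRT15 and FBP2 (0.14). They include sulphur enzymes (SELENBP1, TST), the decoy receptor of interleukin 1 (IL1R2) and the basal keratin. The 10 highest for AQP5 were HSD17B13 (0.28), DHRS7, FABP5, DAPL1, MGST3, MGST1, BDH1, CA1, ATP1B3 and GSTA1 (0.20). They include glutathione transferases (MGST1, MGST3, GSTA1), the epidermal fatty acid carrier FABP5, the ketone body enzyme BDH1 and the carbonic anhydrase CA1. DHRS7, a dehydrogenase gene, was the 1 gene in both lists, and among the deeper 1701 cells 9 of the 10 for GPNMB and 8 of the 10 for AQP5 were again among the 10 highest.

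Markers of the differentiated layers differed between positive and negative cells of either gene. KRTDAP was at 141 CPM in GPNMB-positive and 399 CPM in GPNMB-negative cells, and KRT36 at 336 and 1191 CPM. SPINK5 was at 1211 CPM in AQP5-positive and 527 CPM in AQP5-negative cells, but every other detected granular or cornified marker was lower in AQP5-positive cells. The cornified-layer gene CNFN was at 40.5 and 85.2 CPM, and TGM1 at 50.5 and 63.6 CPM. A2ML1 was at 228.5 and 265.3 CPM, and KRT36 at 853 and 977 CPM. With SPINK5 included, the granular or cornified markers summed to 2384 and 1918 CPM. The spinous markers summed to 617 and 524 CPM. The matrix gene DCN was at 70.4 and 204 CPM in AQP5-positive and negative cells.

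The genes most correlated with AQP5 in milk-only cells were also higher in AQP5-positive concentrate cells, which the correlations had not used. In 148 AQP5-positive concentrate keratinocytes all 10 genes were above their level in AQP5-negative ones, by 1.04 to 2.76 times with a median of 1.27, where the median of all 1185 candidates was 1.04 and 61.9% of them were above 1. GSTA1 was at 511 CPM with and 185 CPM without AQP5. Positive cells were deeper, with a median of 9978 UMIs against 8225.5. In 92 GPNMB-positive concentrate keratinocytes its 10 genes were at 0.928 to 1.42 times the level of negative ones with a median of 1.07 (all candidates 0.965), and 6 of 10 were higher, as were 42.0% of all candidates. The difference between GPNMB and AQP5 in this respect was not tested. In hay the 10 genes of AQP5 were also all higher, in 14 positive cells, where 54.9% of all candidates were higher, and 3 of the 10 genes of GPNMB were higher in 63 positive cells, where 51.6% of all candidates were.

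**Figure D5:**
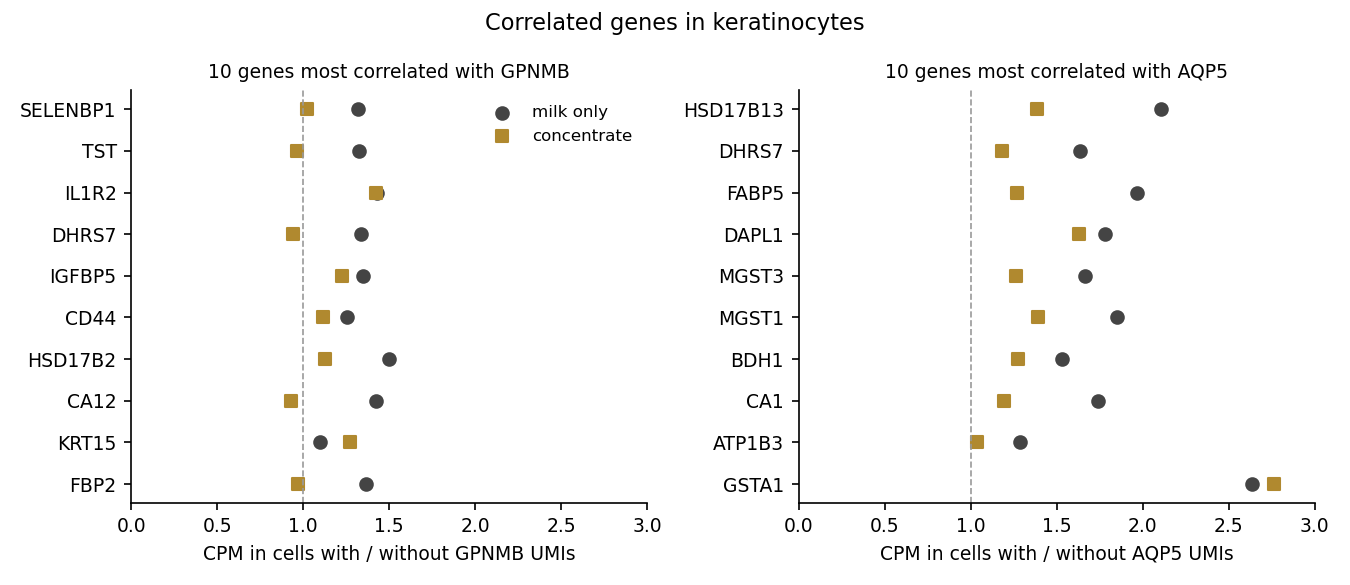
Level in keratinocytes with a UMI of GPNMB (left) or AQP5 (right) over the level in keratinocytes without, for the 10 genes most correlated with each in milk only, in the milk-only library (circles) and the concentrate library (squares), with a dashed line at 1. All 10 squares of AQP5 lie above 1 (1.04 to 2.76), and those of GPNMB lie on both sides (0.928 to 1.42).

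Of the 4 genes on either side of each member, the measured neighbours MALSU1, CCDC126 and RACGAP1 were not at least 2-fold higher with milk only. By gene order in the RefSeq annotation of ARS-UI_Ramb_v3.0, which may not be the build behind the counts, GPNMB lies on chromosome 4 and MALSU1 is next to it. MALSU1 was level over the libraries (62.3, 61.2 and 62.2 CPM in the order used above), and CCDC126, 4 places away, at 12.3, 12.7 and 12.9 CPM. The 4 neighbours on the other side of GPNMB were not matched by symbol and were not analysed here. AQP5 lies on chromosome 3 between AQP6, with 13, 0 and 3 UMIs, and AQP2, with 1, 0 and 3. FAIM2, 2 places from AQP5, had 187, 21 and 134 UMIs, or 3.99, 0.466 and 3.02 CPM, so it was also lowest with hay. RACGAP1, a cytokinesis gene 2 places away on the other side, was at 10.5, 8.37 and 14.3 CPM.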

How the data were processed

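The deposited matrices of the 3 libraries give, for every barcode and gene, a whole-number count of UMIs, made with Cell Ranger, version 3.1 per the submitters' processing notes and 5.0.0 per the file headers. Genome build and barcode selection: not given in the sources used here. The libraries held 63057979, 56861548 and 60220174 UMIs in 7032, 9543 and 9214 barcodes (milk only, hay, concentrate), and their shallowest barcodes had 727, 2263 and 1047 UMIs. Groups came from the sample titles.

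A cell was kept if it had 500 genes or more and less than 20% mitochondrial UMIs, from 13 genes (54.8%, 73.7% and 53.1%). Doublets were not removed. Counts were scaled to 10000 per cell and log-transformed, and 2000 variable genes chosen within libraries, 30 components and 15 neighbours gave Leiden clusters at resolution 0.6 without integration (scanpy 1.11.5, leidenalg 0.10.2, Python 3.11.15, numpy 2.4.6, scipy 1.17.1, pandas 2.3.3). A cluster took a name from a marker list with at least 3 markers at 20 CPM or more, and with 3 markers exceeding all other cells 2-fold, the highest median fold deciding. The basal keratinocyte list was not used for naming. Clusters without a name counted as other keratinocytes by default, the few AKR1D1-led cells included. Such cells made up most keratinocytes of each library (2246 milk-only, 5986 hay and 3882 concentrate cells). This naming, the ordering of cells by marker share, and the comparisons with concentrate and hay cells were chosen after seeing the data.

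The 95% intervals are Poisson for sums, conditional binomial for ratios and Clopper-Pearson for shares, all exact. Where no UMI was seen, 3 counts set the upper limit. Cells of 1 library are not replicates, and these limits cover counting error only. The named genes are both members, the 10 genes most correlated with each over milk-only keratinocytes, the 5 with the most similar profile, every detected aquaporin, and up to 4 measured genes per list with the largest ratios. Some genes are named under 2 parts of this rule. The MiT/TFE factors, which were not measured, the neighbours, SLC12A2 and the markers compared between positive and negative cells are named outside it. The members and lists were chosen with earlier results of these data known. No Ensembl identifier of the files was found in the RefSeq table (0), and both members matched by symbol. The scripts were tested on simulated data. Alternatives covered filters, depth, resolution, clustering without both genes, the UMIs needed for a positive cell and left-out cells.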

Additional observations from a re-analysis of the deposited data

Results flagged for a closer look

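The genes were also counted in barcodes that the filters removed. Among those with at least 500 genes but a mitochondrial share of 20% or more, GPNMB stood at 49.4 CPM in 510 milk-only, 1.2 CPM in 1942 hay and 2.85 CPM in 1565 concentrate barcodes, and AQP5 at 8.26, 0.400 and 3.09 CPM. The order of the libraries was that of the kept cells for both genes. These removed barcodes were not sorted into cell classes, so they are set against all kept cells. AQP5 was at 20.25 CPM in all kept milk-only cells and at 8.26 CPM (6.07 to 10.99) in the removed barcodes, whereas GPNMB was at 44.6 and 49.4 CPM (43.8 to 55.5).

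Among barcodes with under 500 genes, GPNMB stood at 9.77 CPM in 2672 milk-only and 1.35 CPM in 2758 concentrate barcodes, and AQP5 at 5.56 CPM in the milk-only barcodes. These values are listed because they lie above the limit that a count of 0 allows in data that the comparisons left out. In 570 hay barcodes of this kind GPNMB had 0 UMIs, which allows up to 1.82 CPM, and AQP5 had 1.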

How the results depend on the processing

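No ratio changed direction. The AQP5 ratio of milk only to hay stayed between 57.0 and 87.9-fold under all 13 alternatives. Ratios to milk only that moved beyond their counting interval were as follows. A mitochondrial share under 10% gave 0.0649 for GPNMB in hay (0.0427 as reported) and 0.143 for AQP5 in concentrate (0.175 as reported). Thinning to 2000 UMIs gave 0.0852 for GPNMB and 0.127 for AQP5 in concentrate. Leaving out the GPNMB-led cluster gave 0.0656 and 0.0925 for GPNMB in hay and concentrate and 0.214 for AQP5 in concentrate, and leaving out cells with at least 10 GPNMB UMIs gave 0.0553 and 0.0785 for GPNMB. The share of milk-only keratinocytes with GPNMB was 26.0% with at least 1000 genes per cell, 17.4% with at least 200, 18.7% with the mitochondrial limit, 7.01% thinned, 23.7% with at least 2263 UMIs per cell and 11.7% when 2 UMIs were needed. The AQP5 share was 21.9%, 15.1%, 15.8%, 3.99% and 6.18% under the same settings except the UMI minimum, which left it within its interval. Observed over expected cells with both genes was 1.77 with at least 200 genes, 2.15 when 2 UMIs were needed and 1.10 within depth bins of each cluster. The macrophage or dendritic-like to keratinocyte ratio of GPNMB was 0.20 thinned and 0.150 without cells rich in KRT15. The cause of these moves was not tested. The settings that leave out a cluster, high cells or KRT15-rich cells, and the depth bins of each cluster, were chosen after seeing the data. The AQP5 level in hay rests on 14 UMIs, and levels in hay and concentrate are too low to follow the genes cell by cell. No paired analysis was possible because each diet has 1 library.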
